A study of Mus musculus with 11 samples.

Results

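The immunoproteasome and the TAP transporter make the peptides of MHC class I molecules and bring them to those molecules. The 10 genes described here encode 3 catalytic subunits of the immunoproteasome (Psmb8, Psmb9, Psmb10), both chains of the proteasome activator PA28 (Psme1, Psme2), both chains of the transporter (Tap1, Tap2), tapasin (Tapbp), an oxidoreductase of the loading complex (Pdia3) and a trimming peptidase (Erap1). They were taken by their symbols, and all 10 were found among the 31168 named genes of the table and among the 15911 that passed the filter on low counts. RNA came from pieces of distal ileum, the last stretch of small intestine, of mice given dextran sodium sulfate (DSS), a polysaccharide that injures the intestinal lining. The dIEC group held 5 libraries of genotype H2-Ab1 fl/fl; Villin:Cre+ and the WT group 6 libraries of genotype H2-Ab1 fl/fl; Villin:Cre-. Both groups therefore carried the floxed alleles of H2-Ab1, a chain of an MHC class II molecule, and both received DSS. Cre under the villin promoter acts in the intestinal epithelium, so the other cells of the tissue keep the gene. The design text writes Cre-negative for both groups, and the genotype label of each sample was followed here. The sources used here give no age, sex, cage or litter, so a p-value reflects only how these libraries varied.

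Cells cut cytosolic proteins into peptides with the proteasome. Interferon-gamma induces alternative catalytic subunits that take the place of the constitutive ones in newly built particles, and induces PA28, which caps the particle's ends. TAP pumps the peptides into the endoplasmic reticulum, where tapasin holds empty class I molecules at the transporter and ERAP1 trims peptides that are too long. The transactivator NLRC5 and the interferon factor IRF1 drive several of these genes. In the gut, epithelial cells and leukocytes both use this pathway, so a piece of whole ileum mixes the transcripts of both.

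No gene of the set passed the test between dIEC and WT after adjustment over all genes, and all 10 estimates lay above 0. Tap1 was 1.89-fold, Psmb8 1.67-fold and Psmb9 1.54-fold higher in dIEC than in WT by edgeR's fit, and Pdia3, at 1.09-fold, was closest to no difference. Above 0 on the log2 scale were 10 of 10 (48.8% of all genes), or 7 of 10 when libraries were scaled by their totals alone. Their median log2 fold change was 0.37, while that over all 15911 genes was -0.01. At an unadjusted p under 0.05 edgeR had 6 of the 10 genes (Psmb8, Tap1, Tap2, Tapbp, Psme1 and Psmb9), all higher in dIEC. The same rule took 4.86% of all genes as higher and 10.7% in either direction. After Benjamini-Hochberg adjustment 0 of the 10 passed edgeR's quasi-likelihood test and 0 passed DESeq2, where 0.00628% and 0.0691% of all genes passed. Their adjusted p by edgeR ran from 0.427 to 0.734. In whole tissue, more cells of a type and more RNA per cell cannot be told apart.

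**Figure D1:**
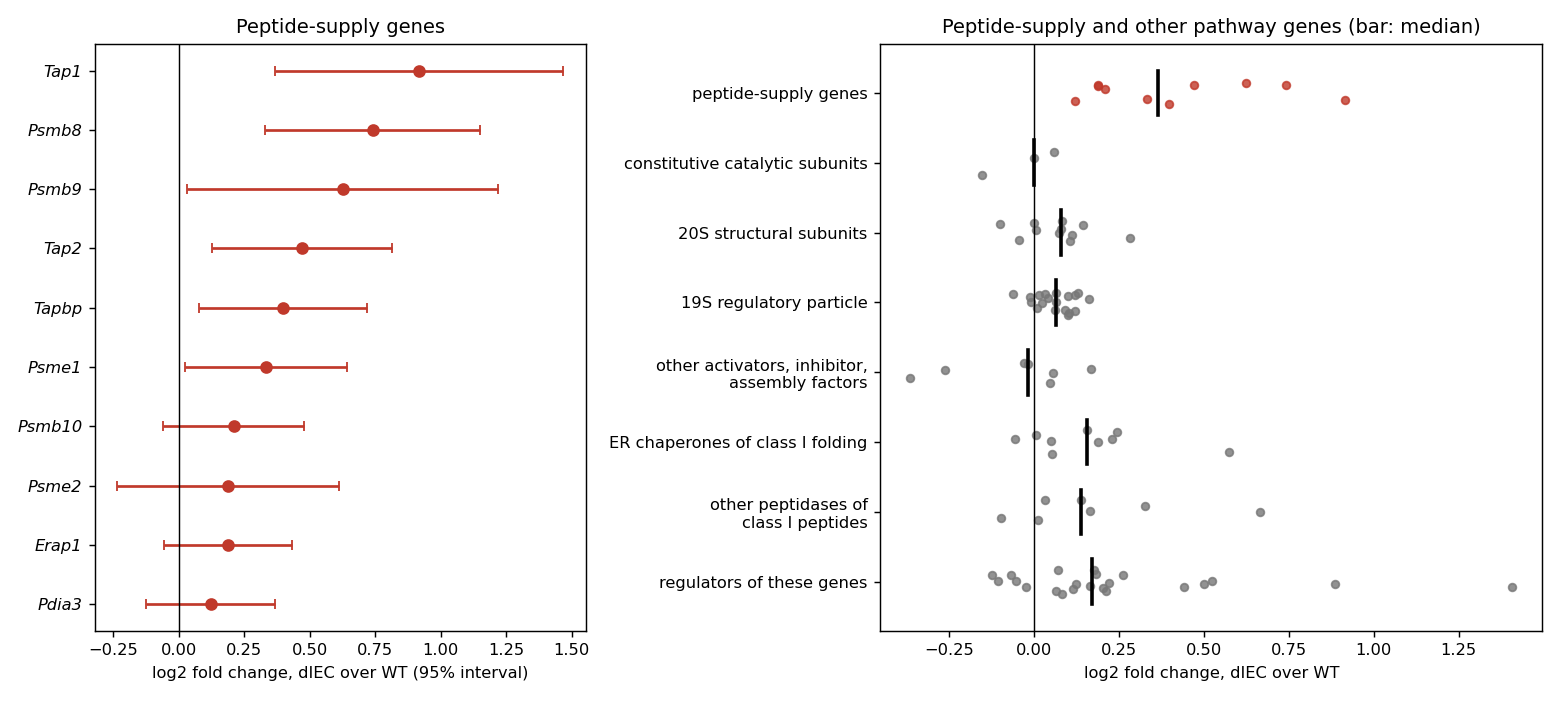
Left, the log2 fold change of each of the 10 genes, dIEC over WT, with its 95% interval from edgeR's fit. Right, the same values for these genes and for the fixed lists of other pathway genes, where each point is a gene and the bar is the median. The 10 genes had a median of 0.37 and the constitutive catalytic subunits a median of 0.00.

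The scaling and single libraries bear on these values. With library totals alone the whole table had a median of -0.22 and the 10 genes one of 0.18. The set thus lay 0.40 above the whole table, with 10 of 10 above its median, while Psme2, Erap1 and Pdia3 lay below 0 and 1 of the 10 had an unadjusted p under 0.05. Without dIEC replicate 11 the count was 3 of 10 and the median 0.25. The count was 4 of 10 when dIEC replicate 3, WT replicate 2 or WT replicate 9 was left out. The median was largest, 0.47, when dIEC replicate 6 was left out. Leaving out WT replicate 8 gave 5 of 10 and a median of 0.41. Without WT replicate 8 the number of genes passing edgeR over the whole table was 319, 2.02% of those tested, and 0 of the 10 were among them (lowest adjusted p = 0.0686 by edgeR, for Tapbp).

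Library totals ran from 6603965 to 9681698 counts, of which 22.9 to 37.3% fell on protein-coding genes without Lars2, and the 10 genes rest on 24 to 1269 counts a library. H2-Ab1, the targeted gene, had 16.8 to 39.0 counts per 1000000 (CPM, scaled by TMM factors) in dIEC and 47.2 to 111 CPM in WT, with no overlap (log2 fold change -1.68 ± 0.28, SE; edgeR adjusted p = 0.363, DESeq2 adjusted p = 4.18e-05). Its counts do not show which exons were read. The ileal markers Fabp6, a bile acid binding protein, and Slc10a2, the bile acid importer, had at least 411 and 447 counts in every library. All 10 fixed markers of ileal epithelium were tested.

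Of the 10 genes 4, Psmb9, Tap1, Psmb8 and Tap2, sit side by side on chromosome 17 in a block of 34.3 kb, from 34181987 to 34216321 (GRCm38), 41.4 kb from the start of H2-Ab1. Psmb9 and Tap1 are read in opposite directions, and their RefSeq start sites lie on either side of 225 bases. That stretch is printed here, together with the sites that matched an interferon motif near the start of 3 other genes of the set. All are from RefSeq on GRCm38.p6, on the plus strand. The first is chr17:34187331-34187555, with its matches to the CCAAT box (CCAAT) and the GC box (GGGCGG, or its reverse complement) in capitals. The Psmb8 stretch is chr17:34198088-34198117, with the match to the gamma-activated site (TTCNNNGAA) in capitals. The Psme1 stretch is chr14:55578493-55578522 and the Erap1 stretch chr13:74639839-74639868, with the match to the core of the interferon-stimulated response element (GAAA and GAAA with any 2 bases between, or its reverse complement) in capitals.
Tap1-Psmb9: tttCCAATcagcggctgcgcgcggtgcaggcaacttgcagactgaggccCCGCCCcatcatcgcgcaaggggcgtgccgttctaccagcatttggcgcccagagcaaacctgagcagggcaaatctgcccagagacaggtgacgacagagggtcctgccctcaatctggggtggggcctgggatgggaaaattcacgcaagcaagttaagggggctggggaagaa
Psmb8: tcctccgctgTTCCCAGAAgatgccccccc
Psme1: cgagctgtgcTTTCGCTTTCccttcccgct
Erap1: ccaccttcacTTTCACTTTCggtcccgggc

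Motifs were searched on both strands, from 250 bases before to 50 bases after each start, for the 9 genes with an entry (all but Tap2). The interferon-stimulated response element core was in 2 of the 9 genes, against 3.44% of all 32851 windows. The gamma-activated site was in 1 of the 9, against 8.30% of windows, and the NF-kappaB site (GGGA, any base, TTTCC) in 0 of the 9, against 0.411%. The CCAAT box was in 4 of the 9 (37.4% of windows) and the GC box in 7 of the 9 (35.7% of windows). Tap1 and Psmb9 share the matches of the printed stretch and count once each. Relative to the start used for this search, the Psmb8 match began 97 bases before it, the Erap1 match 4 bases before and the Psme1 match 10 bases after. The GENCODE positions of these genes, given below, begin further upstream. By that annotation each of these matches lies inside its gene. A match describes these letters and shows no binding.

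Psmb8 encodes the inducible subunit that replaces Psmb5 (chromosome 17, 34197721 to 34201454, plus strand). It had 23.7, 36.4, 17.8, 19.5 and 33.5 CPM in dIEC replicates 1, 3, 5, 6 and 11. The WT replicates 2, 4, 7, 8, 9 and 12 had 10.9, 16.9, 17.3, 13.7, 17.9 and 17.8 CPM. The top WT library was exceeded by 4 of the 5 dIEC libraries, and dIEC replicate 5 lay just under it. Over both groups the log2 fold change was 0.74 ± 0.19 (SE; unadjusted p = 0.00167, edgeR adjusted p = 0.427), with 26.2 ± 8.35 CPM in dIEC (SD, n = 5) and 15.7 ± 2.83 CPM in WT (n = 6). The antisense gene Gm20496 shares 14.7% of the exon bases of Psmb8 and held 34 to 125 counts a library, with a log2 fold change of 0.61. The libraries were directional, but no strand setting of the counting is stated. Whether reads of overlapping genes on opposite strands were told apart is therefore not known.

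Psmb9, the inducible counterpart of Psmb6 (chromosome 17, 34181987 to 34187764, minus strand), had 11.9, 16.5, 8.31, 7.56 and 22.8 CPM in dIEC replicates 1, 3, 5, 6 and 11. In WT replicates 2, 4, 7, 8, 9 and 12 it had 5.51, 11.6, 11.6, 7.93, 8.69 and 7.22 CPM. The dIEC libraries 1, 3 and 11 lay above every WT library, and dIEC replicates 5 and 6 lay inside the WT range. Its log2 fold change was 0.63 ± 0.28 (SE; unadjusted p = 0.0403, edgeR adjusted p = 0.444). Psmb9 rested on 39 to 166 counts a library, and without dIEC replicate 11 its log2 fold change was 0.35.

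Psmb10, the inducible counterpart of Psmb7 (chromosome 8, 105935735 to 105938444, minus strand), had 27.0, 35.8, 23.9, 26.6 and 36.0 CPM in dIEC replicates 1, 3, 5, 6 and 11. The WT replicates 2, 4, 7, 8, 9 and 12 had 20.9, 24.0, 28.0, 27.6, 27.3 and 27.5 CPM. Only dIEC replicates 3 and 11 stood above the WT range, and the other 3 lay within it. It had a log2 fold change of 0.21 ± 0.13 (SE; unadjusted p = 0.118, edgeR adjusted p = 0.541).

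The activator PA28 is a ring of the Psme1 and Psme2 products. Psme1 (chromosome 14, 55578123 to 55581529, plus strand) had 33.6, 37.9, 31.4, 24.7 and 48.4 CPM in dIEC replicates 1, 3, 5, 6 and 11. In WT replicates 2, 4, 7, 8, 9 and 12 it had 23.9, 26.6, 27.3, 29.5, 28.0 and 32.8 CPM. Psme1 was above every WT library in dIEC replicates 1, 3 and 11, and dIEC replicate 6 was below all but WT replicate 2. The log2 fold change was 0.33 ± 0.14 (SE; unadjusted p = 0.0354, edgeR adjusted p = 0.444).

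Psme2 (chromosome 14, 55587441 to 55591113, minus strand) had 5.61, 6.14, 4.86, 4.88 and 9.48 CPM in dIEC replicates 1, 3, 5, 6 and 11, and 4.23 to 7.48 CPM over the 6 WT libraries, with a median of 5.11. Only dIEC replicate 11 lay outside the WT range. It had a log2 fold change of 0.19 ± 0.20 (SE; edgeR adjusted p = 0.734), and it was -0.017 without dIEC replicate 11. These counts are uncertain, because Psme2b, a closely similar gene on chromosome 11, shares 54.9% of the 50-base words of Psme2 transcripts. Psme2b held 80.7 to 84.2% of the summed counts of both genes in dIEC and 77.5 to 83.6% in WT. With both genes summed the level was 35.1 ± 8.97 CPM in dIEC (SD, n = 5) and 29.9 ± 2.67 CPM in WT (n = 6), with a log2 fold change of 0.24 ± 0.14 (SE; edgeR adjusted p = 0.537).

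Tap1, the first chain of the transporter, had the largest fold change of the 10 genes (chromosome 17, 34187553 to 34197225, plus strand). It had 42.0, 35.9, 22.1, 13.7 and 46.2 CPM in dIEC replicates 1, 3, 5, 6 and 11. The WT replicates 2, 4, 7, 8, 9 and 12 had 15.0, 19.4, 17.3, 17.7, 19.8 and 12.6 CPM. Of the dIEC libraries 4 lay above the whole WT range, while dIEC replicate 6 lay near its bottom. The log2 fold change was 0.92 ± 0.26 (SE, 95% interval 0.37 to 1.47; unadjusted p = 0.00323, edgeR adjusted p = 0.427), with 31.96 ± 13.7 CPM in dIEC (SD, n = 5) and 16.96 ± 2.75 CPM in WT (n = 6). In the GENCODE annotation Psmb9 covers the whole printed stretch, and Tap1 and Psmb9 share 212 exon bases at their starts, on opposite strands.

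Tap2, the second chain (chromosome 17, 34203527 to 34216321, plus strand), had 19.98, 22.6, 17.4, 12.6 and 24.6 CPM in dIEC replicates 1, 3, 5, 6 and 11. In WT replicates 2, 4, 7, 8, 9 and 12 it had 10.6, 17.2, 14.7, 13.7, 15.1 and 13.0 CPM. Again 4 dIEC libraries lay above the WT range, replicate 5 by a small margin, and dIEC replicate 6 lay low within it. It had a log2 fold change of 0.47 ± 0.16 (SE; unadjusted p = 0.0108, edgeR adjusted p = 0.427). The opposite-strand gene Gm15821 shares 14.1% of its exon bases and held 22 to 79 counts a library.

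Tapasin, which holds class I molecules at TAP and edits their peptides, is encoded by Tapbp (chromosome 17, 33915899 to 33929292, plus strand). It had 86.6, 90.7, 72.5, 57.5 and 102 CPM in dIEC replicates 1, 3, 5, 6 and 11. The WT replicates 2, 4, 7, 8, 9 and 12 had 58.3, 59.3, 56.0, 80.7, 67.3 and 51.6 CPM. The dIEC libraries 1, 3 and 11 lay above the highest WT library, replicate 8, and dIEC replicate 6 lay with the lower WT libraries. The log2 fold change was 0.40 ± 0.15 (SE; unadjusted p = 0.0185, edgeR adjusted p = 0.427). The antisense gene Gm19412 overlaps 24.9% of its exon bases and held 40 to 95 counts, against 358 to 812 counts of Tapbp.

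Pdia3, or ERp57, which pairs with tapasin and serves many other glycoproteins, lies on chromosome 2 (121413775 to 121438687, plus strand). It had 101, 120, 109, 117 and 132 CPM in dIEC replicates 1, 3, 5, 6 and 11 (mean 116 ± 11.7, SD, n = 5), and 89.5 to 119 CPM in WT (mean 106 ± 12.6, n = 6). The groups overlapped in most of their range. Its log2 fold change was 0.12 ± 0.12 (SE, 95% interval -0.12 to 0.37; edgeR adjusted p = 0.701).

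Erap1, which trims peptides inside the endoplasmic reticulum, lies on chromosome 13 (74639568 to 74693201, plus strand). It had 54.2, 58.0, 51.5, 48.0 and 66.5 CPM in dIEC replicates 1, 3, 5, 6 and 11, and 38.0 to 56.8 CPM in WT, with a median of 50.5. The dIEC libraries 3 and 11 lay above the WT range, replicate 3 by a small margin. It had a log2 fold change of 0.19 ± 0.11 (SE; unadjusted p = 0.122, edgeR adjusted p = 0.545). Cast, on the other strand, overlaps 11.5% of the exon bases of Erap1 and held 488 to 1262 counts, against 254 to 540 counts of Erap1.

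**Figure D2:**
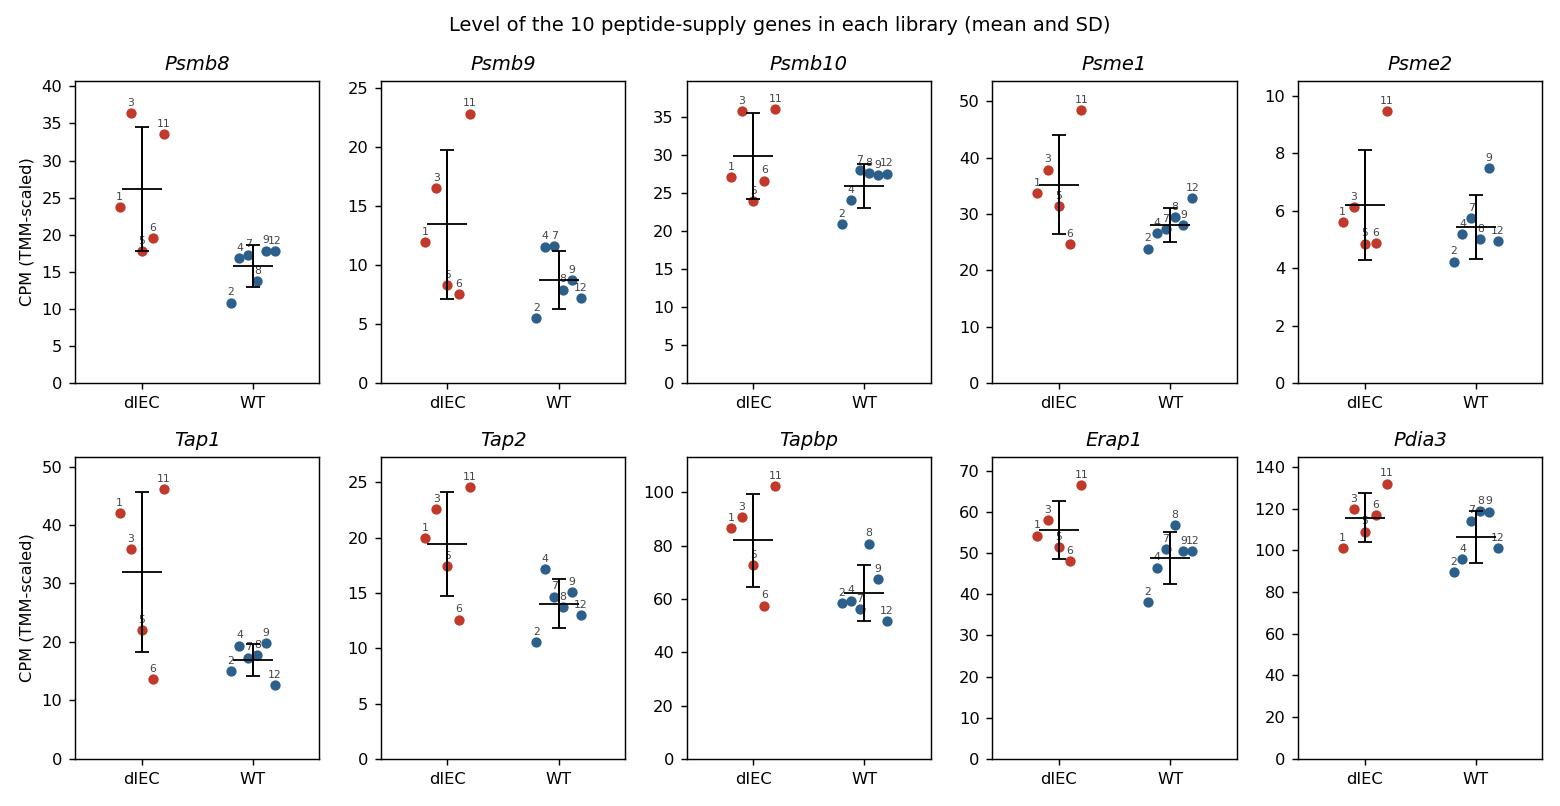
CPM of each of the 10 genes in each library, dIEC (red) left of WT (blue), with the replicate number beside each point and bars for mean and SD. The dIEC libraries spread more widely than the WT libraries for most genes, with replicate 11 highest for 9 genes and replicate 6 within the WT range for 9 of the 10 genes.

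The same libraries lay at the ends of the range for most of the 10 genes, while the order between them differed. For example, WT replicate 12 was the lowest library for Tap1 and Tapbp and the highest WT library for Psme1. The library of dIEC replicate 11 was the highest of all 11 for 9 of the 10 genes, and lay above every WT library for 10 of 10. The library of dIEC replicate 3 lay above every WT library for 9 of 10, replicate 1 for 6, replicate 5 for 2 and replicate 6 for 1, Psmb8. At the other end WT replicate 2 was the lowest library for 8 of the 10 genes. For 6 of the 10 genes at least 3 dIEC libraries exceeded every WT library, against 7.42% of all genes. For 0 of the 10 did the groups separate fully, against 0.233% of all genes that did so as higher and 0.566% in either direction. The SD as a share of the mean was larger in dIEC for 8 of the 10, for Tap1 42.8% in dIEC and 16.2% in WT, and was slightly smaller for Erap1 and Pdia3. No test of this spread was made.

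Per kilobase of transcript the genes ran over nearly an order of magnitude. Pdia3 had the highest level, at 41.8 CPM per kb in dIEC and 38.4 in WT, followed by Psme1 (31.7 and 25.2), Tapbp (28.3 and 21.5) and Psmb10 (22.8 and 19.8). Psmb8 (16.1 in dIEC and 9.67 in WT), Tap1 (10.8 and 5.74), Psmb9 (9.93 and 6.47), Erap1 (9.86 and 8.66), Psme2 (6.44 and 5.65) and Tap2 (5.65 and 4.08) followed. The place of Psme2 is uncertain, because Psme2b, which shares sequence with it, had 34.5 CPM per kb in dIEC and 29.2 in WT. In dIEC the levels of Tap1, Psmb9 and Erap1 differed by less than the spread of Tap1 alone. These are levels, each divided by the longest transcript with a CCDS entry, and the isoforms present were not measured.

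The subunit pairs ask whether the inducible subunit gained on the constitutive one it replaces, within a library and free of library scaling. The ratio of Psmb8 to Psmb5 counts was 5.16, 5.62, 4.19, 2.48 and 5.81 in dIEC replicates 1, 3, 5, 6 and 11, and 1.75, 2.79, 2.24, 2.17, 2.77 and 2.89 in WT replicates 2, 4, 7, 8, 9 and 12. It lay above every WT library in 4 of the 5 dIEC libraries, and dIEC replicate 6 lay inside the WT range. The mean was 4.65 ± 1.37 in dIEC (SD, n = 5) and 2.44 ± 0.453 in WT (n = 6), a log2 difference of 0.89 (two-sided exact permutation p = 0.0130, adjusted over 8 ratios p = 0.104). Psmb5 had the lowest level per kilobase of the 3 constitutive genes (6.45 CPM per kb in dIEC and 7.21 in WT) and 21 to 70 counts a library, with a log2 fold change of -0.15 ± 0.16 (SE). Without dIEC replicate 6 the log2 difference was 1.104 and the adjusted exact permutation p = 0.0381, and without each other library in turn the adjusted p ran from 0.0762 to 0.254.

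The other 2 subunit pairs overlapped more. The ratio of Psmb9 to Psmb6 was 0.832 ± 0.345 in dIEC (SD, n = 5) and 0.559 ± 0.175 in WT (n = 6), with 2 dIEC libraries above the WT range (exact permutation p = 0.126, adjusted p = 0.235). The ratio of Psmb10 to Psmb7 was 1.77 ± 0.269 in dIEC (n = 5) and 1.55 ± 0.189 in WT (n = 6), with 3 dIEC libraries above the WT range (exact permutation p = 0.177, adjusted p = 0.237). The constitutive genes Psmb6 and Psmb7 had log2 fold changes of 0.00 ± 0.10 and 0.06 ± 0.14 (SE).

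For PA28, Psme3, which encodes the nuclear activator PA28 gamma, served as the partner. The ratio of Psme1 to Psme3 was 1.48 ± 0.306 in dIEC (SD, n = 5) and 1.23 ± 0.149 in WT (n = 6), with 4 dIEC libraries above the WT range (exact permutation p = 0.147, adjusted p = 0.235), and without dIEC replicate 6 the log2 difference was 0.39 (adjusted exact permutation p = 0.0381). Without each other library in turn the adjusted p of Psme1 to Psme3 by this exact test ran from 0.254 to 0.381. The ratio of Psme2 to Psme3 was 0.258 ± 0.0579 in dIEC and 0.236 ± 0.0314 in WT (exact permutation p = 0.517, adjusted p = 0.517). It uses the counts of Psme2 without those of Psme2b. The ratio of Tapbp to Tapbpl, which encodes the tapasin-related editor TAPBPR, lay on the other side, at 5.41 ± 0.829 in dIEC and 6.02 ± 0.50 in WT (exact permutation p = 0.136, adjusted p = 0.235).

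The 2 chains of TAP were compared with each other. The ratio of Tap1 to Tap2 counts was 1.58 ± 0.418 in dIEC (SD, n = 5) and 1.22 ± 0.158 in WT (n = 6), and 3 dIEC libraries lay above the WT range (exact permutation p = 0.0909, adjusted p = 0.235). The ratio of Psmb9 to Tap1, whose RefSeq starts lie on either side of the printed stretch, was 0.433 ± 0.105 in dIEC and 0.516 ± 0.115 in WT (exact permutation p = 0.266, adjusted p = 0.304). The smallest p this test allows is 0.00216.

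**Figure D3:**
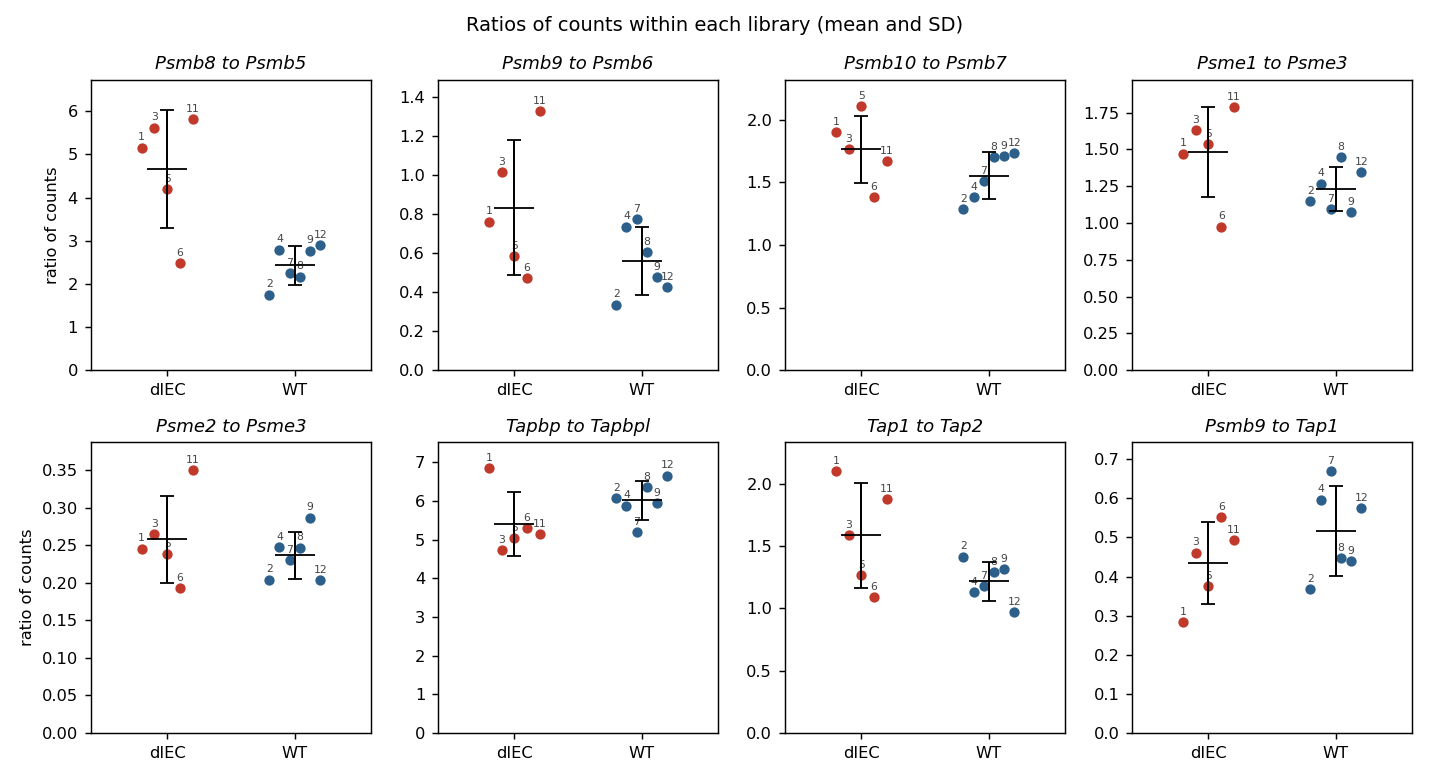
Ratio of the counts of 2 genes in each library, dIEC (red) left of WT (blue), with replicate numbers and bars for mean and SD. The ratio of Psmb8 to Psmb5 lay between 4.19 and 5.81 in 4 dIEC libraries and at most at 2.89 in WT, while dIEC replicate 6 had 2.48.

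The genes varied together among mice of the same group. With the group means subtracted, all 45 pairs of the 10 genes had a positive Pearson r over the 11 libraries, from 0.20 for Tap1 with Pdia3 to 0.91 for Tap2 with Psmb9, with a median of 0.71. These values share library depth and scaling and the same tissue pieces. The mean of the 10 genes' z scores, group means subtracted, was lowest in dIEC replicate 6 (-1.30), WT replicate 2 (-1.15) and dIEC replicate 5 (-0.83), and highest in dIEC replicates 11 (1.51) and 3 (0.73). The share of counts on protein-coding genes moved with it in part. It was 25.6, 27.1 and 22.9% in those 3 low libraries, the 3 lowest shares of all, and 34.1 and 37.3% in those 2 high ones. WT replicates 4 and 7 also had high shares, 35.7 and 35.3%, with mean z scores of only 0.03 and 0.31. Group means were not subtracted from this share. The part of this share in the covariation was not tested. For 6 pairs tested by exact permutation within the groups, Tap1 with Nlrc5, the class I transactivator, gave r = 0.93 (Spearman rho = 0.84, exact permutation p = 0.00188 and 0.00748, adjusted over the 6 pairs 0.0113 and 0.0275). The r was 0.90 without the 2 libraries farthest from the median of Tap1.

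Psmb8 with Psmb9 gave r = 0.86 (rho = 0.75, exact permutation p = 0.00580 and 0.0230, adjusted 0.0174 and 0.0275), and 0.74 without 2 libraries. Psmb9 with Tap1, its neighbour, gave r = 0.78 (rho = 0.75, exact permutation p = 0.0183 and 0.0185, adjusted 0.0219 and 0.0275), and 0.65 without 2 libraries. Psmb8 with Tap2 gave r = 0.79 (rho = 0.79, exact permutation p = 0.0102 and 0.0156, adjusted 0.0205 and 0.0275), and 0.64 without 2. Psmb9 with Irf1 gave r = 0.77 (rho = 0.78, exact permutation p = 0.0145 and 0.0133, adjusted 0.0217 and 0.0275), and 0.53 without 2. Psme1 with Psme2 gave r = 0.71 (rho = 0.63, exact permutation p = 0.0405 and 0.0643, adjusted 0.0405 and 0.0643) and 0.27 without dIEC replicates 3 and 11, so this relation rests on those libraries. Of the 6 pairs, 6 passed by Pearson's r with all libraries, 3 without dIEC replicate 6, 2 without dIEC replicate 11 and 1 without WT replicate 2.

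**Figure D4:**
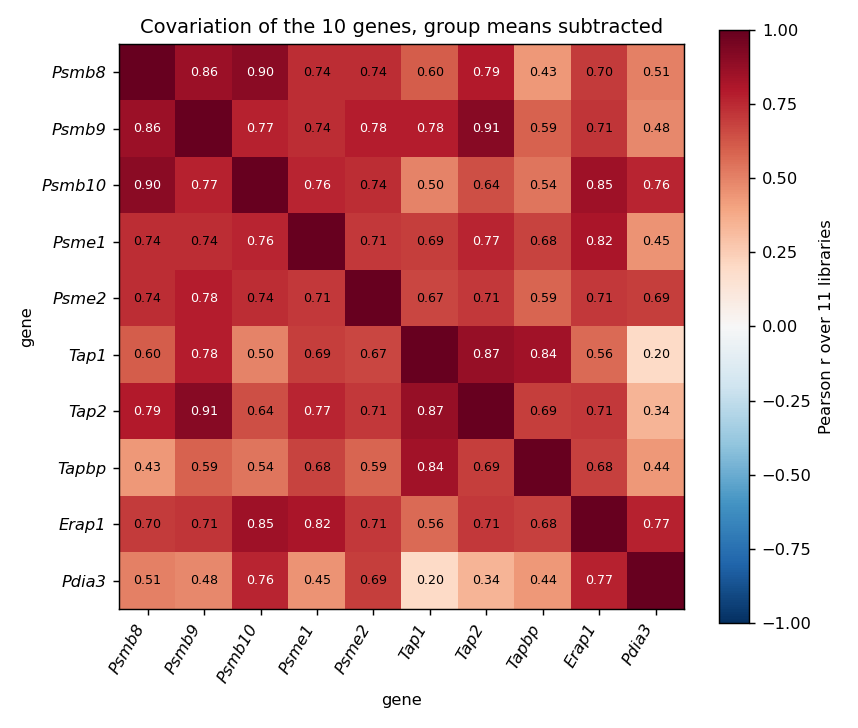
Pearson r between each pair of the 10 genes over 11 libraries, from log2 CPM with the mean of each group subtracted. All pairs are positive, from 0.20 for Tap1 with Pdia3 to 0.91 for Tap2 with Psmb9.

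Outside the set, the 10 genes whose within-group pattern was most like the mean of the 10 genes, by Pearson r over 11 libraries, were Aifm1 (0.95), Pfdn1 (0.93), H2-DMa (0.93), Leprotl1 (0.93), Gtf3c6 (0.93), Apol10a (0.93), Abhd13 (0.93), Psme2b (0.93), Ifit1 (0.92) and Gpx7 (0.92). Among them H2-DMa, a chain of the class II peptide exchanger, had 15.7 CPM in dIEC and 10.6 CPM in WT, and Ifit1, an antiviral interferon target, had 7.59 and 4.58 CPM. Aifm1, a mitochondrial flavoprotein, had 12.8 CPM in dIEC and 13.6 CPM in WT. Of 15901 genes B2m, the class I light chain, ranked 13 (r = 0.91), Irf1 28 (0.87), Irf8 32 (0.87), Nlrc5 115 (0.80) and Tapbpl 163 (0.78). The class I heavy chain genes H2-K1 and H2-D1 ranked 64 (0.84) and 500 (0.68), Lap3 ranked 1108 (0.59), and the lymphocyte genes Itgae and Cd3e ranked 2664 (0.42) and 2835 (0.41). The constitutive subunit genes ranked as follows, Psmb7 at 2046 (0.48), Psmb6 at 5338 (0.20) and Psmb5 at 7681 (0.03).

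The other proteasome lists had median log2 fold changes between -0.02 and 0.08. With library totals alone, the medians of the 7 lists of other pathway genes ran from -0.21 to -0.03, beside -0.22 for the whole table. In the constitutive catalytic list 0 of 3 genes passed edgeR and 0 had an unadjusted p under 0.05 (median log2 fold change 0.00). Of the 11 structural genes of the core particle 0 passed and 1 had an unadjusted p under 0.05, Psma2, named after its value was seen (15.6 CPM in dIEC and 12.9 CPM in WT). Their median was 0.08. Of the 19 genes of the regulatory particle that feeds ubiquitinated proteins to the core, 0 passed, 0 had an unadjusted p under 0.05, and the median was 0.07. Of the other activators, the inhibitor and the assembly factors, 7 of 9 were measured and 0 passed (median -0.02). Below 0, the listed genes with the smallest p were the assembly chaperone genes Psmg2 (2.04 CPM in dIEC and 2.64 CPM in WT) and Psmg1 (2.55 and 3.10 CPM). Next came the peptidase gene Nrd1 (39.5 and 42.2 CPM), Psmb5 and the class II and class I factor gene Rfx5 (7.78 and 8.32 CPM), and none of these 5 had an unadjusted p under 0.05. DESeq2 called 0 genes in each of these lists and in those that follow.

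Among the chaperones of class I folding 0 of 9 passed edgeR, with a median of 0.16. Tapbpl had the largest fold change of this list, with 10.9 to 19.9 CPM in dIEC and 7.75 to 12.7 CPM in WT (log2 fold change 0.58 ± 0.17, SE; unadjusted p = 0.00397, edgeR adjusted p = 0.427). Calr, calreticulin, had 169 ± 37.3 CPM in dIEC (SD, n = 5) and 151 ± 21.8 CPM in WT (n = 6), and Canx, calnexin, had 238 ± 30.2 and 208 ± 27.4 CPM. Of the 7 other peptidases 0 passed and 2 had an unadjusted p under 0.05. These were Blmh, bleomycin hydrolase (23.2 ± 3.34 CPM in dIEC and 18.5 ± 2.03 CPM in WT), and Lap3, a cytosolic aminopeptidase, named after its value was seen (80.8 ± 24.4 and 51.0 ± 26.2 CPM).

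Of the 22 regulators 0 passed edgeR and 4 had an unadjusted p under 0.05, all higher in dIEC. Nlrc5 had 14.5 to 33.9 CPM in dIEC and 11.01 to 19.6 CPM in WT (log2 fold change 0.89 ± 0.22, SE; edgeR adjusted p = 0.427). Irf8, a factor of leukocytes and interferon signalling, had 51.6 ± 11.7 CPM in dIEC (SD, n = 5) and 36.4 ± 5.93 CPM in WT (n = 6). Socs1, a feedback inhibitor of interferon signalling, had 1.57 to 3.80 CPM in dIEC and 0.424 to 1.34 CPM in WT, with no overlap. Its level was low, so this separation rests on few counts. Full separation as higher held for 0.233% of all genes. Irf1 had 59.0 ± 14.9 CPM in dIEC and 51.0 ± 9.12 CPM in WT, a log2 fold change of 0.21 ± 0.16 (SE). Ifng, the gene of interferon-gamma itself, had 0 to 2 counts a library and was not tested. Without WT replicate 8 the genes of the lists that passed edgeR were 2, Lap3 and Socs1. Over all the lists 0 of 78 measured genes passed, 8 (10.3%) had an unadjusted p under 0.05, all higher, beside 4.86% of all genes as higher and 10.7% in either direction. Above 0 lay 61 (78.2%, beside 48.8% of all genes), with a median of 0.08.

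Around the chromosome 17 block, 8 other tested genes lie wholly within 100 kb. Of these, 6 had log2 fold changes above 0, beside 48.8% of all genes. H2-DMb1 and H2-DMb2, chains of the class II peptide exchanger, had 17.02 to 30.2 and 2.63 to 4.17 CPM in dIEC and 8.75 to 15.6 and 0.528 to 2.54 CPM in WT, without overlap. Of all genes 0.233% separated in this way as higher. H2-DMb2 was low in WT, so its separation rests on few counts. H2-Aa, the partner chain of H2-Ab1, had 92.1 to 199 CPM in dIEC and 48.8 to 108 CPM in WT. H2-DMa was given above. The opposite-strand genes Gm20496 and Gm15821, which share exon bases with Psmb8 or Tap2, had log2 fold changes of 0.61 and 0.58. Brd2, a chromatin reader that is no part of antigen presentation, had 57.7 CPM in dIEC and 60.7 CPM in WT (log2 fold change -0.07 ± 0.09, SE). H2-Ab1 was the other gene below 0.

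The 14 fixed markers of T cells and intraepithelial lymphocytes, 11 of them tested, summed to 44.0 to 84.4 CPM in dIEC and 23.4 to 49.3 CPM in WT, and 10 of the 11 lay above 0, 8 of them with an unadjusted p under 0.05. Their median log2 fold change was 0.80. Of all genes 48.8% lay above 0. By edgeR's unadjusted p under 0.05, 4.86% of all genes were higher and 10.7% differed in either direction. The 10 markers of absorptive enterocytes summed to 3263 to 7566 CPM in dIEC and 2024 to 8476 CPM in WT. All 10 of them lay above 0, 3 with an unadjusted p under 0.05 and with a median log2 fold change of 0.73, as did all 10 markers of ileal epithelium, which summed to 2483 to 3500 CPM in dIEC and 1957 to 3773 CPM in WT (median log2 fold change 0.26, 0 with an unadjusted p under 0.05). The lymphocyte sum was highest in dIEC replicate 11. WT replicate 8 had the highest enterocyte and epithelial sums. The other WT libraries had 2024 to 3860 CPM of enterocyte markers and 1957 to 2646 CPM of epithelial markers. The 7 fibroblast markers summed to 260.5 to 433 CPM in dIEC and 260.2 to 860 CPM in WT. The lowest WT sum was that of replicate 8, and the other WT libraries had 391 to 860 CPM. Of the 7 markers 0 lay above 0, and 6 had an unadjusted p under 0.05 (median -1.01). Macrophage and dendritic cell markers (12 in the table, 9 tested) summed to 72.7 to 125 CPM in dIEC and 45.6 to 137 CPM in WT, and 1 of the 9 lay above 0. Smooth muscle markers (6 of 6) summed to 1140 to 2643 CPM in dIEC and 1910 to 4005 CPM in WT, and 0 of 6 lay above 0. Endothelial markers (7 of 7) summed to 49.3 to 77.2 CPM in dIEC and 47.4 to 108 CPM in WT, and 1 of 7 lay above 0. Neuronal and glial markers (8 in the table, 6 tested) summed to 17.2 to 25.9 CPM in dIEC and 17.2 to 31.6 CPM in WT, and 1 of 6 lay above 0. Plasma cell markers (6 in the table, 5 tested) summed to 244 to 557 CPM in dIEC and 173 to 467 CPM in WT, and 4 of 5 lay above 0. An unadjusted p under 0.05 was found for 1 endothelial, 2 neuronal and glial and 1 plasma cell marker. It was found for 0 macrophage and dendritic cell markers and 0 smooth muscle markers. The 8 B cell markers summed to 3.02 to 6.77 CPM in dIEC and 4.27 to 7.06 CPM in WT, and the 4 neutrophil markers found to at most 1.22 and 0.565 CPM. No list held a marker that was at 0 in every library. The part of these cell types in the differences of the 10 genes was not tested.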

How the data were processed

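RNA was extracted from Trizol with a column kit and libraries were directional, per the labels' protocols. Reads were aligned with TopHat2 to mm10, per the submitters' processing notes. How reads were counted (tool, strand setting, annotation, multiply placed reads) was not given in the sources used here. Whole-number counts per gene symbol, not normalized, were deposited by the authors, and all 11 value columns matched a sample. A row that named no gene (0.00778 to 0.0147% of counts) was left out.

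Genes were kept by filterByExpr and tested with the quasi-likelihood F test of edgeR 4.0.16 in R 4.3.3 (TMM factors, robust, dIEC over WT, adjusted threshold 0.05). The SE is the log2 fold change over the square root of F, and intervals use the t quantile at edgeR's total degrees of freedom. CPM are per 1000000 counts, with library totals times TMM factors. DESeq2 1.42.0 and limma 3.58.1 were alternatives. The edgeR script was tested on simulated counts. Ratios used all 462 splits, and covariation used log2 CPM with prior count 2. Positions and exons are GENCODE vM21 (GRCm38). Within groups, 25 pairs of libraries were compared and all differed by more than counting error (chi-square over its degrees of freedom was 10.7 to 72.4). No pairing of replicates across groups exists in the labels.

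The 10 genes, lists, ratios and pairs were chosen with earlier results of these data known. Named genes were all 10 genes, 10 set genes of the pathway, the 5 listed genes with the lowest p in each direction, the 10 genes of most like pattern and neighbours within 100 kb. The regulatory-particle gene listed under its older symbol Shfm1 was matched as Sem1. The values of 1 gene of the pathway lists are not reported here.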

Additional observations from a re-analysis of the deposited data

Results flagged for a closer look

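Of 36 groups of libraries examined (10 genes and 8 ratios in dIEC and WT), 2 held a library far from the others by Dixon's criterion, and chance flags about 1 in 20. The Psme2 level of dIEC replicate 11 was 9.48 CPM, with the next dIEC library at 6.14 and the lowest at 4.86 CPM. The ratio of Tapbp to Tapbpl counts of dIEC replicate 1 was 6.84, with the next dIEC library at 5.29 and the lowest at 4.72. Psme2 shares sequence with Psme2b, and its log2 fold change without dIEC replicate 11 was -0.017.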

How the results depend on the processing

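Across 18 other settings 0 of the 10 genes passed, and 7 to 10 lay above 0. The whole-table count of genes passing was 1 by edgeR, 11 by DESeq2, 2 with library totals alone and 1 to 319 with 1 library left out, 319 being without WT replicate 8. The count of the 10 genes at an unadjusted p under 0.05 was 6 by edgeR, 4 with limma-voom and 5 with no filter on low counts. It was 1 with library totals alone and 3 to 7 with 1 library left out. The median of the 10 genes was 0.18 with library totals alone and 0.25 to 0.47 with 1 library left out. With library totals alone Psme2, Erap1 and Pdia3 were at -0.011, -0.011 and -0.081, and with 1 library left out Psme2 ran from -0.017 (without dIEC replicate 11) to 0.307. With 1 library left out, the log2 difference of Psmb8 to Psmb5 ran from 0.80 to 1.104, of Psme1 to Psme3 from 0.17 to 0.39 and of Psme2 to Psme3 from -0.0081 to 0.208, and 1 to 6 of the 6 pairs passed. The cause was not tested. Summing Psme2 with Psme2b was chosen after seeing the data. No paired analysis was possible because the groups share no replicate number. Counts of 21 to 80 a library limit Psmb5 and Psme2.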
